A study of Mus musculus with 6 samples.

Results

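In cultured mouse spermatogonial stem cells, 9 classical imprinted genes were followed: Igf2, Igf2r, Meg3, Peg3, Mest, Snrpn, Plagl1, Grb10 and H19. They were chosen by name and found on the array through the RefSeq accession of each probe, which gave 18 of 55681 probes, for 8 of the 9 genes. No probe accession was matched to H19, so H19 was not analysed here. The 3 captopril samples were spermatogonial stem cells given 0.01 M captopril, an inhibitor of angiotensin-converting enzyme, for 24 h, and the 3 water samples were the same kind of cells given sterile water for 24 h, which the labels also call 0.01 M. Both groups came from dissociated testis cells that were passaged and then grown on mouse embryonic fibroblasts (MEFs). Strain, genotype and age of the animals are not given in the sources used here, and the labels call the 3 samples of each group independent and number them 2, 3 and 4.

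An imprinted gene is transcribed mainly from one parental copy, because DNA methylation laid down in the egg or in the sperm lineage marks a control region nearby. In the male germ line the inherited marks are erased in primordial germ cells and a paternal pattern is then set on both copies, with methylation at the control regions of H19 and Meg3 and none at those of Mest, Peg3, Snrpn, Plagl1, Grb10 and Igf2r. Embryonic fibroblasts, which also express many imprinted genes, keep the somatic pattern with one marked copy. The arrays measure the RNA of a gene from both copies and from all cells in the dish, so neither allelic expression nor methylation was measured here, and fewer cells of a type and less RNA per cell cannot be told apart.

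Mest, Peg3 and Plagl1 are the genes with at least 1 probe that was lower on all captopril arrays than on all water arrays, and their start regions are shown for that reason. The sequences are from RefSeq (GRCm38.p6), 250 bases before to 50 bases after an annotated start, 5′ to 3′ on the gene's strand, with CpG dinucleotides, the sites of methylation, in capitals. For Mest, which has 3 annotated starts in this table, 1 of the 2 overlapping windows is given.
Mest, chr6:30737800-30738099, plus strand: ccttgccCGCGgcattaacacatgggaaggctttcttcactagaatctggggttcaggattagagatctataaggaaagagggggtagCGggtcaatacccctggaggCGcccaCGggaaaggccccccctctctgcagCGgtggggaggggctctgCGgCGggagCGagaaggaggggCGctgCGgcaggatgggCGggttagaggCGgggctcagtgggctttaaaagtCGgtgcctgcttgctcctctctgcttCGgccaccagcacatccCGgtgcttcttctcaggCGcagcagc
Peg3, chr7:6730370-6730669, minus strand: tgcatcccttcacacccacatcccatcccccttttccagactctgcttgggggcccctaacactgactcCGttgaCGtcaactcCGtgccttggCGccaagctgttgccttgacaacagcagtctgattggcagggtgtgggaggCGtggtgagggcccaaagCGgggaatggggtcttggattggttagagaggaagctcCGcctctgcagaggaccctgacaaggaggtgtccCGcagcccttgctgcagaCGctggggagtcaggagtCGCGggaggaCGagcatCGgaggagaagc
Plagl1, chr10:13090582-13090881, plus strand: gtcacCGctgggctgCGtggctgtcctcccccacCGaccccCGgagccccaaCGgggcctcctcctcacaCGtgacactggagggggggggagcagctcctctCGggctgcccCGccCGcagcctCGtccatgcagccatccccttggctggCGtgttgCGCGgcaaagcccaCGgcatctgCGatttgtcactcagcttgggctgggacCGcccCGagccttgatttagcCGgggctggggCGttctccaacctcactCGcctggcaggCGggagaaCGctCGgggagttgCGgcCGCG
The Mest window shown held 17 CpGs, the Peg3 window 13 and the Plagl1 window 26, against a median of 7 in the 32851 windows of the table. The separate Mest window, at chr6:30733256-30733555 and not shown, held 8. At least as many CpGs as in the Plagl1 window were found in 16.9% of all windows. For the Mest window shown this share was 31.4%, and for the Peg3 window 37.9%. The letters TGCCGC, which the imprint-protecting factor ZFP57 is known to bind when methylated, were searched on both strands. They were found, in the reverse complement GCGGCA, at −242 and −67 from the start in the Mest window shown. Likewise they were in the Plagl1 window at −90. Neither the Peg3 window nor the separate Mest window held them. Of the 18 member windows, of which 2 for Mest overlap almost completely, 7 held these letters, and 11.6% of all windows did. The letters themselves hold a CpG, and these shares were not compared between windows of like CpG number. The array data do not bear on methylation or factor binding in these windows.

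All 6 arrays lay on 1 slide, and water replicate 3 stood apart from the other arrays. Over 55618 probes it correlated with them at 0.938 to 0.943, while the highest correlation of each other array was 0.988 to 0.991. It had the lowest share of spots well above background, 52.2%, against 57.3% to 60.5% on the others. Its 75th percentile signal, 1875, was also the lowest, near the 1885 of captopril replicate 4. Each result is therefore also given without water replicate 3, as 3 captopril against 2 water arrays. All 16 listed germ cell markers were well above background on at least 5 of the 6 arrays. The 19 listed fibroblast markers were well above background on every array too. Of the 17 listed somatic testis markers, 16 had a probe, and 8 were well above background on at least 3 arrays. All 8 were so on every array but water replicate 3, where 6 were. The Sertoli genes Amh and Fshr and the Leydig genes Cyp11a1, Hsd3b1, Cyp17a1 and Lhcgr were not well above background on any array. The 8 detected markers came from Sox9, Wt1, Gata4, Cldn11, Rhox5, Star, Insl3, Acta2, Myh11, Des and Cnn1. These include further Sertoli and Leydig genes, so the undetected genes do not stand for the whole list. The labels do not say whether feeder cells were removed before the RNA was taken.

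None of the 8 genes passed the test. Levels are given as log2 of the processed spot signal relative to the 75th percentile of its array, and fold changes as captopril minus water. A gene was represented by the brightest of its probes that were well above background on at least 3 arrays. Over 6 arrays no adjusted p from limma was under 0.05 (0 of 14876 genes, 0.0%), and 1222 genes (8.21%) had an unadjusted p below that value. Of the 8 genes 1 was among these, Mest. When water replicate 3 was left out, 91 genes passed (0.612%), 62 higher and 29 lower, and again none of the 8, while 2 of the 8, Mest and Snrpn, were among the 19.1% of genes with an unadjusted p under 0.05. With scaling by the array median in place of the 75th percentile, the calls without that array were 39, with 19 higher and 20 lower.

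The median log2 fold change of the 8 genes was 0.05 over 6 arrays, with 5 positive and 3 negative values, and the median of all genes tested was −0.03. Over the 5 arrays without water replicate 3 it was −0.11, with 4 positive and 4 negative values, against 0.07 for all genes. The captopril arrays did not overlap with the water arrays in 2 of the 8 genes, Mest and Peg3, where 21.5% of all genes tested had separate groups. Both were lower on the captopril arrays, as were 11.4% of all genes. Leaving out water replicate 3, this held for 4 of the 8 (42.9% of all genes): Mest, Peg3 and Snrpn were lower on all captopril arrays (15.7%), and Igf2r was higher (27.2%). Counted over both directions, the shares of the 8 genes with separate groups are near those of all genes.

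**Figure D1:**
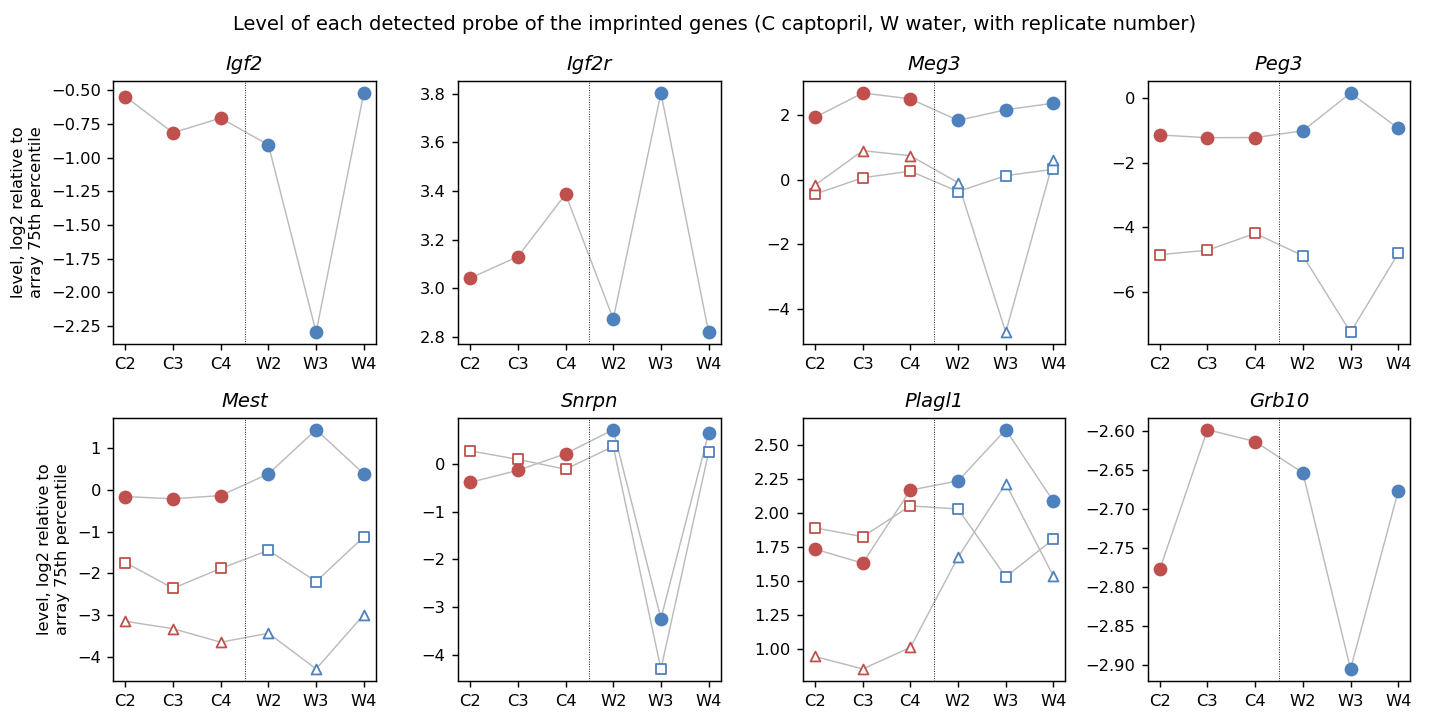
Log2 level relative to the array's 75th percentile (y axis, a scale of its own in each panel) of every detected probe of the 8 genes on captopril (C, red) and water (W, blue) arrays, by replicate number. Filled circles are the probe used for the gene and open symbols its other probes. Mest lies between −0.21 and −0.13 on the captopril arrays and between 0.39 and 1.45 on the water arrays, and both Snrpn probes are lowest on water replicate 3.

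Mest encodes a protein of the alpha/beta hydrolase family, is expressed from the paternal copy and is abundant in embryonic mesoderm. Its level was −0.16, −0.21 and −0.13 on captopril arrays 2, 3 and 4, against 0.39, 1.45 and 0.39 on water arrays 2, 3 and 4. All captopril arrays lay below all water arrays, and water replicate 3 was the highest of all. The log2 fold change was −0.91 (SE 0.33, 95% interval −1.69 to −0.13, limma unadjusted p = 0.028, adjusted p = 0.591). Without water replicate 3 it was −0.56 (SE 0.14, 95% interval −0.88 to −0.23, adjusted p = 0.106). Within slide row 2, which holds the 3 captopril arrays and water replicate 4 alone, it was −0.56 as well.

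The 3 probes for Mest carry the same accession and did not run alike on water replicate 3. Probe A_55_P2090025 stood at −1.74, −2.36 and −1.88 on captopril arrays 2, 3 and 4, against −1.45, −2.20 and −1.12 on the water arrays. The groups overlapped through water replicate 3, and without it the fold change of this probe was −0.71 (SE 0.23, limma adjusted p = 0.171). Probe A_55_P2151868 stood at −3.15, −3.33 and −3.65 on the captopril arrays, against −3.44, −4.30 and −2.99 on the water arrays. Its groups overlapped with and without water replicate 3, at fold changes of 0.20 and −0.16. Relative to the median of the other 5 arrays, water replicate 3 was 1.58 higher for the first Mest probe, and at −0.46 and −0.97 for the others.

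Peg3, a large zinc finger protein expressed from the paternal copy, was measured by a bright and a dim probe. On the bright probe it stood at −1.14, −1.22 and −1.22 on captopril arrays 2, 3 and 4, against −1.01, 0.17 and −0.93 on water arrays 2, 3 and 4. The groups did not overlap, but water replicates 2 and 4 lay close to the captopril arrays. The log2 fold change was −0.60 (SE 0.35, limma adjusted p = 0.632) over 6 arrays and −0.22 (SE 0.14, 95% interval −0.55 to 0.11, adjusted p = 0.411) without water replicate 3. The dim probe, A_55_P2163319, gave the opposite sign, 1.07 (SE 0.67) and 0.26 (SE 0.22). It was not well above background on water replicate 3, where it stood at −7.26.

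Plagl1 encodes a zinc finger transcription factor that restrains the cell cycle and acts on other imprinted genes, and is expressed from the paternal copy. The brightest of its 4 probes stood at 1.73, 1.63 and 2.17 on captopril arrays 2, 3 and 4, against 2.24, 2.62 and 2.09 on water arrays 2, 3 and 4. The groups overlapped through captopril replicate 4 and water replicate 4. The log2 fold change was −0.47 (SE 0.26, 95% interval −1.08 to 0.14, limma adjusted p = 0.632), and −0.32 (SE 0.20, adjusted p = 0.414) without water replicate 3. Probe A_52_P532456 of the same accession stood at 0.94, 0.85 and 1.01 on the captopril arrays, against 1.67, 2.22 and 1.53 on the water arrays. Here the groups were well apart, with a fold change of −0.88 (SE 0.25, limma adjusted p = 0.557 over 32426 probes), and of −0.67 (SE 0.15, adjusted p = 0.0999) without water replicate 3. On probe A_55_P1961965 the groups overlapped, with a fold change of 0.13 (SE 0.23), and probe A_55_P2153251 was not well above background on any array. Over single probes, 23.9% of the 32426 tested had separate groups on 6 arrays, and 3 of the 16 detected probes of the 8 genes did. When water replicate 3 was left out, 43.7% of all probes and 6 of the 16 did.

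Snrpn encodes a core protein of splicing particles and lies in the paternally expressed cluster that also holds Ndn and Magel2. Its brightest probe stood at −0.39, −0.14 and 0.21 on captopril arrays 2, 3 and 4, against 0.71, −3.23 and 0.64 on water arrays 2, 3 and 4. Water replicate 3 was far below every other array, and the remaining water arrays lay above all captopril arrays. The log2 fold change was 0.52 with an SE of 1.00 over 6 arrays (limma adjusted p = 0.871). Leaving that array out, it was −0.78 (SE 0.20, 95% interval −1.26 to −0.30, adjusted p = 0.119), and it was −0.75 within slide row 2. A second probe, A_55_P1998194, stood at 0.27, 0.09 and −0.12 on the captopril arrays, against 0.36, −4.28 and 0.24 on the water arrays. It was lowest on the same water array, and gave −0.22 (SE 0.17, adjusted p = 0.497) without it, with overlapping groups. The remaining probe, A_55_P1990116, was not well above background on any array.

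Igf2, a fetal growth factor made from the paternal copy in most tissues, stood at −0.55, −0.82 and −0.71 on captopril arrays 2, 3 and 4, against −0.91, −2.29 and −0.52 on water arrays 2, 3 and 4. Apart from water replicate 3, the lowest, the groups overlapped fully. The log2 fold change was 0.55 (SE 0.45, limma adjusted p = 0.671), and without that array it was 0.02 (SE 0.18, 95% interval −0.40 to 0.45). Igf2r, the receptor that takes up IGF2 for degradation and is expressed from the maternal copy, stood at 3.04, 3.13 and 3.39 on the captopril arrays, against 2.87, 3.80 and 2.82 on the water arrays. The captopril arrays lay above water replicates 2 and 4 and below water replicate 3. Its fold change was 0.02 (SE 0.32, adjusted p = 0.989), and 0.34 (SE 0.16, 95% interval −0.05 to 0.72, adjusted p = 0.304) without water replicate 3.

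Grb10, an adaptor that dampens signalling of the insulin and IGF1 receptors and is maternally expressed outside the brain, had the narrowest range over the 6 arrays. Its single probe stood at −2.78, −2.60 and −2.61 on captopril arrays 2, 3 and 4, against −2.65, −2.91 and −2.68 on water arrays 2, 3 and 4. The groups overlapped, and the fold change was 0.08 (SE 0.21, 95% interval −0.41 to 0.58, limma adjusted p = 0.910). It was 0.002 without water replicate 3, with a 95% interval of −0.34 to 0.34.

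Meg3, a long noncoding RNA made from the maternal copy next to Dlk1, was measured by 3 probes. The brightest stood at 1.92, 2.68 and 2.50 on captopril arrays 2, 3 and 4, against 1.83, 2.16 and 2.36 on water arrays 2, 3 and 4. The groups overlapped, and the log2 fold change was 0.25 (SE 0.28, 95% interval −0.42 to 0.92, limma adjusted p = 0.764), and 0.27 without water replicate 3. Probe A_52_P196568 showed −0.07 (SE 0.30) over 6 arrays. Probe A_55_P2033407, which carries the same accession as the brightest, stood at −0.17, 0.90 and 0.74 on the captopril arrays, against −0.09, −4.71 and 0.60 on the water arrays. Relative to the median of the other 5 arrays, water replicate 3 stood at −5.31 on this probe, at −0.20 on the brightest and at 0.07 on A_52_P196568.

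**Figure D2:**
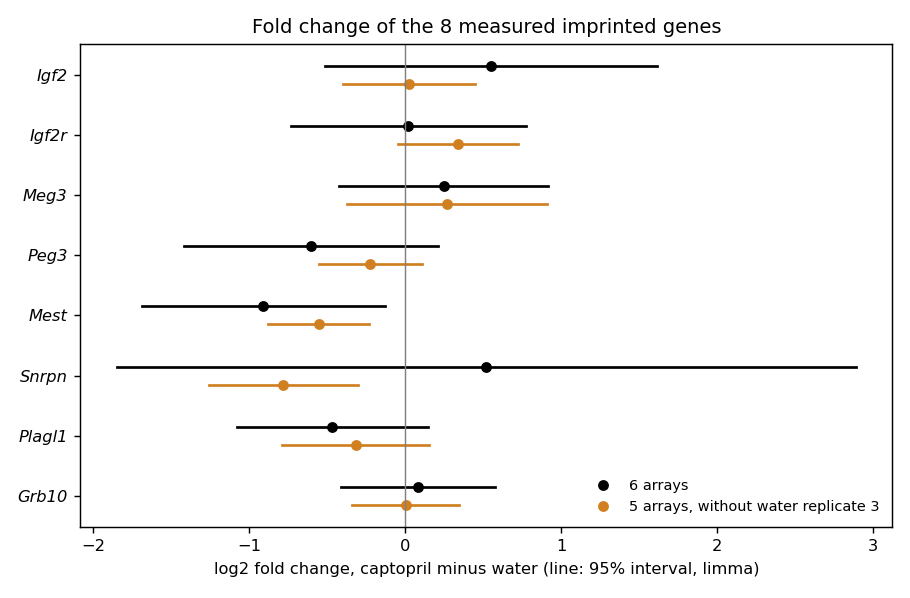
Log2 fold change (captopril minus water, x axis) of the 8 genes with its 95% interval, over 6 arrays (black) and without water replicate 3 (orange). The interval of Snrpn runs from −1.85 to 2.89 over 6 arrays and from −1.26 to −0.30 without that array, and those of Mest lie below 0 in both comparisons, with no adjusted p under 0.05.

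Within slide row 2, where water replicate 4 is the only water array and is assumed to vary like the captopril arrays, the fold change was −0.26 for Peg3, −0.24 for Plagl1, −0.17 for Igf2, 0.37 for Igf2r, 0.014 for Grb10 and 0.002 for Meg3. With the slide row as a block the values are the same, and limma called none of the 8 genes in either fit. Slide row 1 holds water replicates 2 and 3 alone, so no comparison can be made within it.

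Water replicate 3 stood apart in both directions on the probes of these genes. It lay more than 1 below the lowest other array for 5 of the 16 detected probes (for Igf2, for Peg3, for Meg3 and both for Snrpn), where 17.8% of all probes tested did. It lay more than 1 above the highest other array for 2 of the 16 (Peg3 and Mest, each on its brightest probe), where 4.18% of all probes did. For none of the other arrays was any of the 16 probes that far from the rest. Peg3 had 1 probe of each kind. Probes for 1 gene can differ in the isoform and in the part of the transcript they bind, which the files used here do not give.

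**Figure D3:**
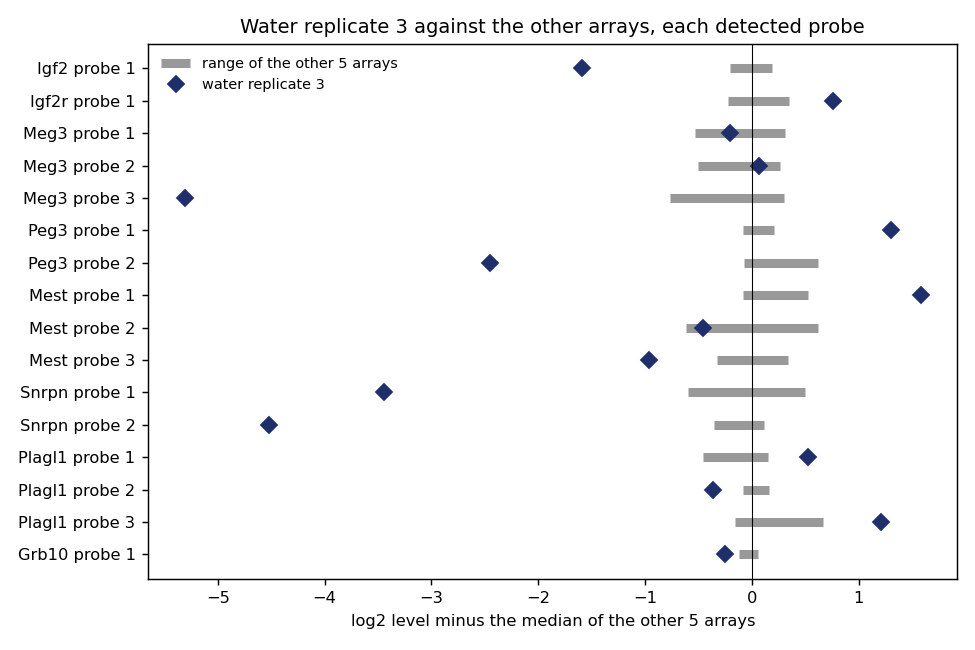
Log2 level on water replicate 3 (diamonds) minus the median of the other 5 arrays, for each detected probe of the 8 genes, numbered from the brightest. Grey bars give the range of the other 5 arrays. The lowest values are −5.31 for a Meg3 probe and −4.53 and −3.44 for the Snrpn probes, and the highest is 1.58 for a Mest probe.

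Other imprinted genes were read from 2 lists. Of 25 further paternally expressed genes 21 were tested, and their median log2 fold change was −0.15 over 6 arrays and −0.08 without water replicate 3. Of 33 further maternally expressed genes 27 were tested, with medians of −0.07 and 0.10. None of the 48 passed over 6 arrays, and without water replicate 3 the only call was Klf14, which entered the test through the water arrays alone, so that its direction was set by the filter on dim probes. The groups did not overlap in 10 of the 48 over 6 arrays and in 20 of the 48 without that array, close to the shares of all genes given above.

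Klf14, a transcription factor expressed from the maternal copy near Mest, stood at −6.24, −6.45 and −6.76 on captopril arrays 2, 3 and 4, against −4.75, −3.69 and −5.01 on water arrays 2, 3 and 4. It was well above background on all water arrays and on no captopril array, so it met the filter of 3 arrays only through the group where it is high, and neither its direction nor its p is evidence of a difference. The water mean was therefore set against a floored captopril mean. For each captopril array this took the higher of the gene's own signal and the lowest signal of any probe well above background. The water mean of Klf14 was 1.58-fold above it over 6 arrays, and 1.20-fold without water replicate 3. This is no strict bound. Magel2 lay above that lowest signal on captopril arrays 2 and 3, yet was well above background on only 1 captopril array. The limma adjusted p of Klf14 was 0.455 over 6 arrays and 0.042 without water replicate 3. With quantile normalization of those 5 arrays the adjusted p was 0.065, and with a filter of all 6 arrays Klf14 was not tested. Over all alternatives its adjusted p ran from 0.042 to 1.00. Mest shares this neighbourhood, and its own values are those given above.

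Peg10, a gene derived from a retrotransposon and needed in the placenta, had the smallest p over 6 arrays among the paternally expressed genes of the list, and Sgce had it without water replicate 3. It stood at −5.88, −6.52 and −5.39 on captopril arrays 2, 3 and 4, where it was not well above background, against −4.58, −4.02 and −4.44 on water arrays 2, 3 and 4. Like Klf14 it met the filter only through the water arrays, which set its direction. Its water mean was 1.73-fold above the floored captopril mean, taken as for Klf14, and 1.54-fold without water replicate 3. Peg10 had limma adjusted p-values of 0.455 and 0.088, which like its direction are no evidence of a difference. Its neighbour Sgce, which encodes epsilon-sarcoglycan and is named after its values were seen, stood at 1.71, 1.72 and 1.76 on the captopril arrays, against 1.05, 1.31 and 0.84 on the water arrays. The groups of Sgce did not overlap, with all captopril arrays above all water arrays. The fold change of Sgce was 0.67 (SE 0.22, adjusted p = 0.580), and 0.79 (SE 0.15, adjusted p = 0.068) without water replicate 3.

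Dlk1, Ndn and Nnat are named after their values were seen, because Dlk1 neighbours Meg3, and Ndn and Nnat were low on the same array as Snrpn. Dlk1, a membrane protein of the Notch ligand family, stood at 0.63, 0.70 and 0.95 on captopril arrays 2, 3 and 4, against 1.51, 2.19 and 1.09 on water arrays 2, 3 and 4. All captopril arrays lay below all water arrays, at a fold change of −0.84 (SE 0.32, limma adjusted p = 0.591), and of −0.54 (SE 0.19, adjusted p = 0.200) without water replicate 3. Ndn, which neighbours Snrpn in the same cluster, stood at 1.05, 1.01 and 1.14 on the captopril arrays, against 0.93, −6.72 and 0.74 on the water arrays. On water replicate 3 Ndn was not well above background. Magel2 of that cluster, itself near background, stood there at −4.73, within the range of the other arrays. Mkrn3, of the same list of paternally expressed genes, had its highest value there, −0.90. Of all probes tested, 17.8% lay more than 1 below the lowest other array on water replicate 3. Nnat, a small membrane protein, stood on its brightest probe at −0.44, −0.44 and 0.08 on the captopril arrays, against 0.35, −4.29 and 0.21 on the water arrays. Over 6 arrays this probe gave a fold change of 0.97 (SE 1.17), while the mean of the Nnat probes gave 0.16 (SE 0.69).

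**Figure D4:**
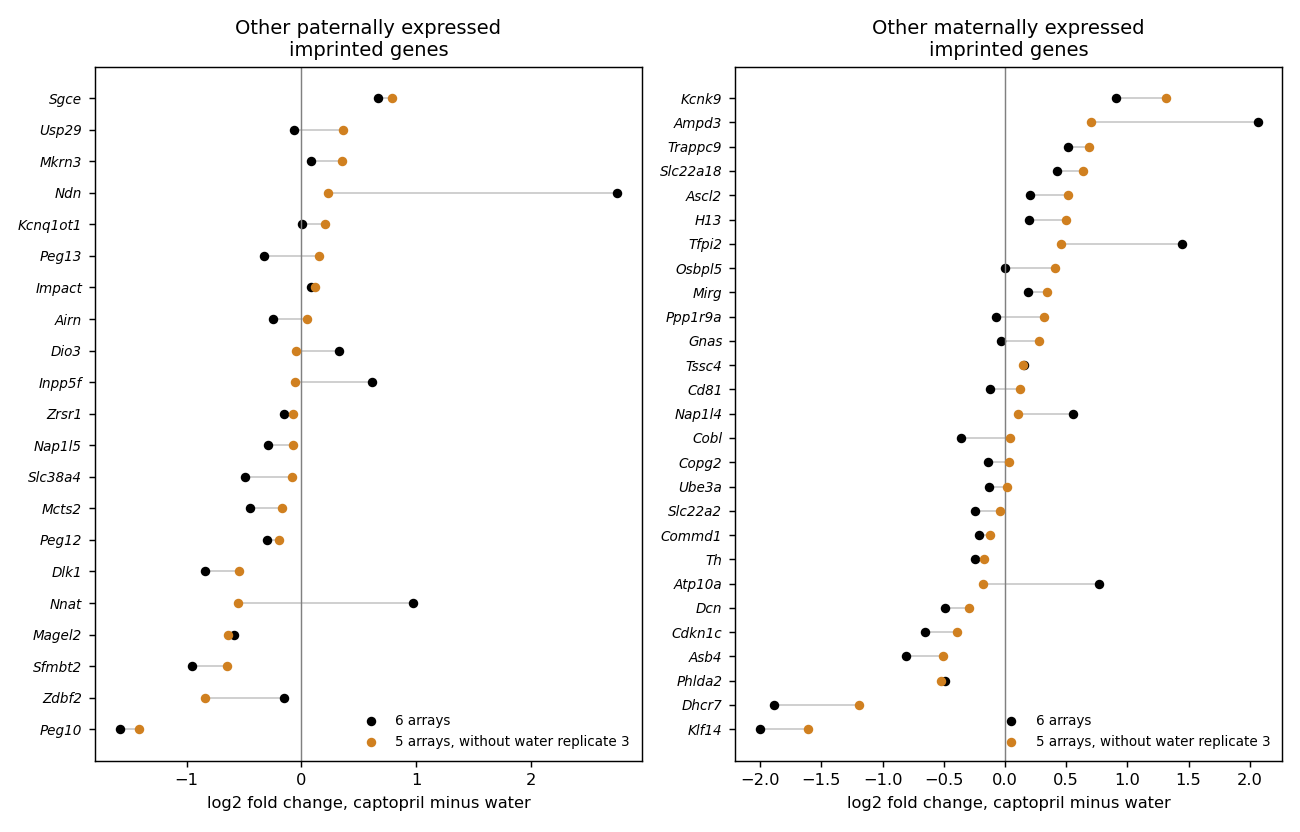
Log2 fold change (captopril minus water, x axis) of the 21 paternally and 27 maternally expressed further imprinted genes tested, over 6 arrays (black) and without water replicate 3 (orange). Ndn has 2.75 over 6 arrays and 0.23 without that array, while Klf14 and Peg10 stay at the low end of their lists. The plotted values of these 2 genes rest on captopril signals at background, and that of Ndn over 6 arrays rests on a signal at background on water replicate 3.

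None of the 19 fibroblast, 16 germ cell and 8 tested somatic testis markers passed the test, with or without water replicate 3. With each marker set against its 6-array median, the middle value of the 19 was −0.09, −0.14 and 0.03 on captopril arrays 2, 3 and 4, against 0.00, 0.87 and 0.00 on water arrays 2, 3 and 4. In 7 of the 19 markers, Col3a1, Col6a1, Pdgfrb, Fbn1, Postn, Lum and Prrx1, all captopril arrays lay below all water arrays (11.4% of all genes), and in none above (1494 of the 14876 genes). Without water replicate 3, 7 of the 19 were separate and lower (15.7% of all genes) and 5 were separate and higher (27.2%), with 9 positive and 10 negative fold changes. The collagen gene Col3a1 had a fold change of −0.87 (SE 0.25, limma adjusted p = 0.529), and of −0.66 (SE 0.15, adjusted p = 0.088) without water replicate 3. The median fold change of the 19 was −0.43, and −0.08 without that array. Set against their own medians, the germ cell markers stood at −0.07, −0.04 and 0.22 on the captopril arrays, against 0.03, 0.44 and −0.15 on the water arrays. Of the 16, 6 had a positive and 10 a negative fold change over 6 arrays, with a median of −0.04, and 2 were separate and higher and 3 separate and lower. Without water replicate 3 the median was 0.14, with 10 positive and 6 negative values. Sall4, a transcription factor of undifferentiated spermatogonia and the germ cell marker with the smallest p over 6 arrays, had higher values on all captopril arrays than on all water arrays, at a fold change of 0.89 (SE 0.37, limma adjusted p = 0.606), and of 0.51 (SE 0.21, adjusted p = 0.253) without water replicate 3. What part the feeder cells have in the values of Mest, Peg3, Plagl1 and Dlk1 was not tested.

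The genes whose levels ran most like each member over the 6 arrays are given as a description, since they were picked from all genes tested and share the shift of water replicate 3. For Mest they were Fndc3c1 and Uchl5, with Pearson's r over arrays of 0.999 for both, and of 0.996 for both without that array. For Peg3 they were Hhex and Cnbp, for Snrpn Art1 and Gsta4, and for Plagl1 Cyp51 and Bmi1. For Igf2 they were Ift172 and Pigk, for Igf2r Arfip1 and Henmt1, for Grb10 Gm829 and Naa40, and for Meg3 Lair1 and BB557941. The r over 6 arrays was lowest for the 2 genes most like Meg3, at 0.923 and 0.920. None of these 16 genes is an imprinted gene of the lists used here. The lists hold only 8 members and 48 further genes of the 14876 tested, so this says little about imprinted genes.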

How the data were processed

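RNA of 3 captopril and 3 water samples was measured on single-colour Agilent arrays. The deposited spot intensity values come from Agilent Feature Extraction, which had subtracted background within each array. Its version is 11.5.1.1 in the headers of the files and 10.7 in the submitters' processing notes. The log2 values of the authors' deposited table differed from the values used here by a constant per array, of 0.13 to 0.19. Its column medians were −3.73, −3.64 and −3.63 for captopril replicates 2, 3 and 4, and −3.81, −4.25 and −3.79 for water replicates 2, 3 and 4, and its scale is log2 with a centring near the 75th percentile. It was an alternative only.

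Log2 of the processed signal was taken, the 75th percentile of each array (1875 to 3424) was subtracted, control spots and outlier spots were left out, and spots of a probe were averaged. Probes were named through RefSeq accessions of GRCm38.p6 (26762 of 55681 probes). The array was designed on another build, so coordinates are given only for the RefSeq start windows. Between 52.2% and 60.5% of spots were well above background, and the number of arrays limits the precision. limma 3.58.1 in R 4.3.3 (lmFit, eBayes, two-sided, Benjamini-Hochberg) was fitted over all 14876 genes, or over 32426 probes for single probes, and was tested on simulated data. Python 3.11.15 made tables and plots. P-values measure the spread between these samples, since the labels do not say whether the independent samples were separate animals. Same-numbered samples did not deviate together (r of −0.02, 0.02 and −0.19), and the numbers were not used as pairs. With 3 arrays in each group and water replicate 3 far from the rest, this check cannot exclude pairing.

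The members, the lists and the omission of water replicate 3 were chosen with earlier results of these data known. Named were all members, the member of each other list with the smallest p or past the threshold, and the 2 genes most like each member. Alternatives were other background, scaling, filter, probe and variance choices, the authors' table, replicate and slide row blocks, and each array left out. The files have no mean spot signal, so normexp used the median signals.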

Additional observations from a re-analysis of the deposited data

How the results depend on the processing

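Over 6 arrays 0 genes were called under every alternative run, and with arrays left out in turn the count ran from 0 to 91, the 91 being without water replicate 3. After seeing the data, that comparison was also scaled by the array median (39 calls) and by quantiles (0 calls, with 2997 genes at an unadjusted p under 0.05). The median of the member genes, 0.05, was −0.25 with scaling by the array median, which moved the median of all genes to −0.33, 0.16 with the mean of each gene's probes, and −0.21 with the slide row as a block or slide row 2 alone. With single arrays left out it ran from −0.11 (without water replicate 3) to 0.12, and without water replicate 3 it was −0.24 with median scaling and −0.18 with quantiles.

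Signs of the fold changes turned as follows. With the slide row as a block and in slide row 2 alone, Igf2 stood at −0.17, Snrpn at −0.75 and Nnat at −0.48. With median scaling Igf2r stood at −0.28, Meg3 at −0.053 and Grb10 at −0.22, with quantiles Grb10 at −0.15, with the authors' table Igf2r at −0.012, and with the mean of probes Peg3 at 0.23. With arrays left out, Igf2r ran from −0.15 to 0.34, Snrpn from −0.78 to 1.19 and Nnat from −0.55 to 1.77. Without water replicate 3, median scaling put Igf2 at −0.11, Snrpn at −0.91, Grb10 at −0.13 and Nnat at −0.68, and quantiles put Igf2 at −0.010, Snrpn at −0.80, Grb10 at −0.10 and Nnat at −0.57. Single probes turned the sign for Meg3 (−0.068, and −0.020 without water replicate 3), Peg3 (1.07 and 0.26), Mest (0.20), Snrpn (−0.22 without water replicate 3) and Plagl1 (0.13 and 0.0044). Of the genes named, Klf14 alone passed the threshold under any alternative, without water replicate 3 (adjusted p = 0.042) and there with median scaling too (0.047), with captopril signals at background and a direction set by the filter. The chosen probes of Mest, Peg3 and Plagl1, and Sgce, Dlk1, Igfbp3 and Ctcf, kept their sign under all alternatives of arrays and scaling. Ndn did too, with a signal at background on water replicate 3. So did Klf14 and Peg10, but with captopril signals at background and a direction set by the filter. The cause of these changes was not tested, apart from the single array or probe that defines them. The replicate number as a block (0 calls, with 1369 genes at an unadjusted p under 0.05) changed no call. Whether the numbers pair the samples cannot be told from these arrays. Signal over background limits the dim Peg3 probe and 10 of the 48 other imprinted genes, which were not well above background on at least 1 array, among them Klf14, Peg10, Ndn and Magel2.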

Other observations

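Genes of the insulin-like growth factor system, in which Igf2, Igf2r and Grb10 act, gave no call. Of 16 listed genes 14 were tested, with a median log2 fold change of −0.11 over 6 arrays and 0.05 without water replicate 3. Igfbp3, a secreted binder of IGF1 and IGF2, had the smallest p of the list. It stood at −1.45, −1.61 and −1.48 on captopril arrays 2, 3 and 4, against −0.69, −1.15 and −0.42 on water arrays 2, 3 and 4. All captopril arrays lay below all water arrays, at −0.76 (SE 0.26, limma adjusted p = 0.589), and at −0.96 (SE 0.16, adjusted p = 0.057) without water replicate 3.

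Of 19 listed genes that set, keep or erase DNA methylation imprints 18 were tested, and all 18 were well above background on every array. Their median was −0.29 over 6 arrays, with 14 negative values, and −0.06 without water replicate 3, and none was called. Of all 14876 genes tested, 7920 had negative values over 6 arrays. With each gene set against its 6-array median, the middle value of the 18 was 0.52 for water replicate 3, while the other arrays ran from −0.10 to 0.04. Water replicate 3 was raised in every other list too, from 0.19 for the members to 0.87 for the fibroblast markers. Ctcf, which binds the unmethylated H19 control region, had the smallest p. It stood at −0.59, 0.12 and −0.63 on captopril arrays 2, 3 and 4, against 0.22, 1.72 and 0.56 on water arrays 2, 3 and 4, with a fold change of −1.20 (SE 0.43, limma adjusted p = 0.591), and of −0.76 (SE 0.26, adjusted p = 0.197) without water replicate 3.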
